A study of Homo sapiens with 6 samples.

Results

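The D cyclins CCND1, CCND2 and CCND3, their kinase partner CDK6, the CDK inhibitors CDKN1B, CDKN1C, CDKN2A, CDKN2B and CDKN2C, and the retinoblastoma gene RB1 were followed by RNA sequencing in U2OS 2-6-3 cells. These 10 genes were taken by symbol out of 26852 genes with a symbol in the deposited tables. The set was chosen with earlier results of these data known. The cells are a human osteosarcoma line that carries an array of tet operators, sites bound by the TetR protein, beside a reporter gene. The sample group was transiently transfected with 3 plasmids, coding for mCherry-MCP, for CIBN-TetR and for PHR-YFP-VP16. PHR binds CIBN under blue light, which carries the activator VP16 to the TetR-bound array. The mock group was transfected with plasmids for TetR-RFP and YFP, with the same reagent. The untransfected group received neither plasmids nor reagent. All 3 groups were illuminated overnight and had 2 libraries each, and every cell came from the same line. Transfection was transient, so a group can hold cells that took up no plasmid. The labels do not say that the libraries of a group came from different cultures. The p-values therefore reflect the spread among these particular libraries, and that spread may be technical.

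D cyclins bind CDK4 and CDK6 when growth signals arrive, and the active kinases phosphorylate RB1, which then releases E2F transcription factors that drive genes of S phase. The INK4 inhibitors, coded by CDKN2A, CDKN2B, CDKN2C and CDKN2D, bind CDK4 and CDK6 and keep the D cyclins away. The Cip/Kip inhibitors, coded by CDKN1A, CDKN1B and CDKN1C, bind whole cyclin and CDK complexes and block cyclin E with CDK2 in particular. U2OS cells are known for carrying a working RB1 gene and for not expressing CDKN2A.

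Transfected cells of both groups held less RNA of 4 inhibitors and more of 2 D cyclins than untransfected cells. CDKN1B, CDKN1C, CDKN2B and CDKN2C were between 3.89 and 6.74 times lower in transfected than in untransfected cells, while CCND1 was 1.52 times higher in sample cells and 1.70 times higher in mock cells. CDK6 and CCND3 were also higher, by smaller amounts, and CCND2 was not called in either comparison. CDKN2A had no read in any library. Between sample and mock cells no member was called.

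The promoters of the inhibitors are shown first, for the 3 fallen genes that the sequence table holds and for CDKN2A, which had no reads. The sequences are from RefSeq on GRCh38.p14, 250 bases before to 50 after a transcript start, 5′ to 3′ on the gene's own strand, and that table held such an entry for 7 of the 10 members. Capitals mark every match to the GC box, GGGCGG on either strand, a motif bound by SP1-type factors. The windows lie at chr12:12717118-12717417 on the plus strand for CDKN1B, chr1:50968456-50968755 on the plus strand for CDKN2C, chr9:22009256-22009555 on the minus strand for CDKN2B, and chr9:21974808-21975107 on the minus strand for the inner start of CDKN2A, inside the span of its longest entry.
CDKN1B: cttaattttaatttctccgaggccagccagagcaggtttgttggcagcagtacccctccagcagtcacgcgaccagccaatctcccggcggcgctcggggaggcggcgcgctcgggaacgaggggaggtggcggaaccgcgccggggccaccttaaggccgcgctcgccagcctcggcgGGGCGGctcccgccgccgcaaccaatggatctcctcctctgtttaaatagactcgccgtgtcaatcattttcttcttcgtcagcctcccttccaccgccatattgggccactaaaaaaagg
CDKN2C: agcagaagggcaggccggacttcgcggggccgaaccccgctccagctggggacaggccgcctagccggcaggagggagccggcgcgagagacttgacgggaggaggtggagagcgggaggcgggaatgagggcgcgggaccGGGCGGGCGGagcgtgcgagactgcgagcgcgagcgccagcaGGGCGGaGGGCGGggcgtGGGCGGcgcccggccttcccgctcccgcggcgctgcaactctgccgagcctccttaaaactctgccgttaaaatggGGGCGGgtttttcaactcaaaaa
CDKN2B: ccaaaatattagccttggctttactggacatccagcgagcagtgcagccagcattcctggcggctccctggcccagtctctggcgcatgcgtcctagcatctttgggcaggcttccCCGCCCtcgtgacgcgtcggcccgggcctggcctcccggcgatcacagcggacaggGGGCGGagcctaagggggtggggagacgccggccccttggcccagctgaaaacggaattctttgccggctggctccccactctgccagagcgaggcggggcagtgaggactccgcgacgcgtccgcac
CDKN2A: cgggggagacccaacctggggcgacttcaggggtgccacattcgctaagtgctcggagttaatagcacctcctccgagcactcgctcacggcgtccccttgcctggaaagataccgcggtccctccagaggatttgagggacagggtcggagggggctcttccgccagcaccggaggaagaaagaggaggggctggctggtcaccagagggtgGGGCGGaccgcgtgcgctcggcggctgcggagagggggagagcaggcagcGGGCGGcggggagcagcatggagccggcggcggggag

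All 4 windows were rich in CpG and in GC. They held 29 CpG in CDKN1B, 37 in CDKN2C, 25 in CDKN2B and 26 in CDKN2A, against a median of 14 over 35116 promoters of the same length. Their GC content was 62.3%, 71.3%, 67.3% and 69% in that order, against a median of 58.7%. The GC box occurred once in CDKN1B, 6 times in CDKN2C with 1 pair overlapping, and 2 times each in CDKN2B and CDKN2A, and 45% of all promoters held it. The CCAAT motif, searched on both strands, occurred 3 times in CDKN1B and in none of the other 3 windows, and 34.6% of all promoters held it. Neither TGTTTAC, the forkhead core, nor CACGTG, the E-box bound by MYC with MAX, was present in these 4 windows on either strand, and 3.42% and 7.26% of all promoters held them. The CDKN2A window lay within the range of the other 3 windows in CpG count, GC content and GC boxes.

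Depth and units bear on every value below. Levels are normalized read counts, reads divided by a size factor for the library's depth, and the reads of each library were solved from the deposited means. Reads summed over all transcript entries were 50105854 and 9579278 in sample cells, 54177551 and 44594507 in mock cells, and 53596406 and 51146190 in untransfected cells. Entries of a gene can share reads, so these sums can count a read more than once. The library totals used as scaling in limma below are sums over the most-read entry of each gene. The 2nd sample library was the shallowest, and over 14893 genes the SD of the log2 difference within a pair was 0.657 for sample, 0.318 for mock and 0.25 for untransfected libraries. A gene was called at an adjusted p under 0.05 in the authors' DESeq2 results.

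Of the 9 members with reads, 7 were called in sample against untransfected cells, 3 higher and 4 lower, by the test of the authors' deposited table. Over all 15567 genes tested there, 37.3% were called, 20.2% higher and 17.1% lower. In mock against untransfected cells 8 of 9 were called, 3 higher and 5 lower, by the authors' deposited table. There 50.9% of 17093 genes were called, 27.5% higher and 23.3% lower. A call was thus common among all genes, most of all in mock cells, and the counts of members stand against that background. Because the members were chosen with earlier results of these data known, that contrast is a description only. A call with a log2 fold change of -1 or less was made for 4 members in each comparison, against 7.38% of genes in sample cells and 9.97% in mock cells, by the authors' deposited table. Both comparisons share the untransfected libraries, so their values are not independent of each other.

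**Figure D1:**
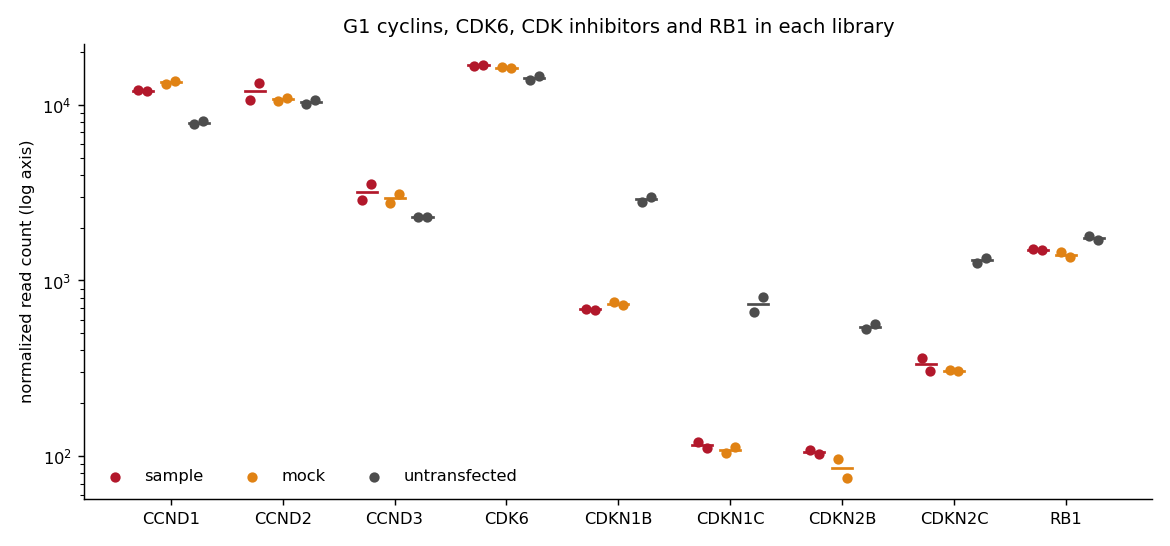
Normalized read counts, on a log axis, of the 9 members with reads in the 6 libraries. Points are libraries and lines are group means. The sample and mock points of CDKN1B, CDKN1C, CDKN2B and CDKN2C all lie below the untransfected points, and those of CCND1 all lie above them.

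CCND1, the D cyclin gene most often induced by growth factors, lies at chr11:69641105-69654474 (hg38). It had 12035.4 and 11953.2 normalized read counts in sample cells, 13056.9 and 13692.8 in mock cells, and 7711.7 and 8052.1 in untransfected cells. Every transfected library was above both untransfected ones, and both sample libraries were below both mock ones. The log2 fold change was 0.60 (SE 0.09, adjusted p = 2.61e-09) in sample and 0.78 (SE 0.07, adjusted p = 6.9e-30) in mock against untransfected cells, in the authors' deposited table. Per kilobase of transcript CCND1 was the most abundant of the 3 D cyclins in each group, at a mean of 2785 normalized read counts in sample, 3105 in mock and 1830 in untransfected cells.

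CCND2, at chr12:4273736-4305356, codes for the D cyclin best known from lymphoid cells and gonads. It had 10580.2 and 13184.4 normalized read counts in sample cells, 10448.2 and 10956.1 in mock cells, and 10135.8 and 10648.5 in untransfected cells. The 3 groups overlapped. The log2 difference was 0.19 (SE 0.12, adjusted p = 0.248) in sample and 0.06 (SE 0.07, adjusted p = 0.486) in mock against untransfected cells, in the authors' deposited table. The 95% interval of its fold by limma was 0.956 to 1.31 in sample and 0.875 to 1.19 in mock against untransfected cells. The shallow sample library was the highest of the 6, and with it as the only sample library limma gave 0.33 (adjusted p = 0.00992).

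CCND3, at chr6:41934933-41941848 in the entry with most reads, codes for the remaining D cyclin, which is found in most tissues. It had 2855.5 and 3528.7 normalized read counts in sample cells, 2760.4 and 3108.6 in mock cells, and 2294.2 and 2305.6 in untransfected cells. All transfected libraries were above both untransfected ones, while the sample and mock libraries overlapped. Its fold change, in log2, was 0.45 (SE 0.13, adjusted p = 0.00261) in sample and 0.37 (SE 0.09, adjusted p = 6.34e-05) in mock against untransfected cells, in the authors' deposited table. The mock call was lost by limma with library totals as scaling (0.21, adjusted p = 0.0873) and in 3 of 4 fits that left out a library. Those gave adjusted p = 0.0788 without the deeper untransfected library, 0.0737 without the shallower one and 0.118 without the shallower mock library. The sample call was lost without the deeper untransfected library (adjusted p = 0.0513). The longer of its 2 listed entries moved alike, with 0.46 in sample and 0.36 in mock against untransfected cells, in the authors' deposited table.

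CDK6, at chr7:92604921-92836627, codes for the kinase that D cyclins activate beside CDK4. It had 16628.4 and 16865.5 normalized read counts in sample cells, 16275.4 and 16215.3 in mock cells, and 13717.8 and 14512.7 in untransfected cells. Every transfected library was above both untransfected ones. The log2 fold change was 0.24 (SE 0.09, adjusted p = 0.0273) in sample and 0.22 (SE 0.06, adjusted p = 0.00171) in mock against untransfected cells, in the authors' deposited table. This was the smallest change called among the members. With library totals in place of size factors, limma gave CDK6 0.12 (adjusted p = 0.152) in sample and 0.06 (adjusted p = 0.382) in mock against untransfected cells. Without the deeper untransfected library it gave 0.20 (adjusted p = 0.131) and 0.15 (adjusted p = 0.22), and the mock call was lost whichever of the 4 libraries was left out (adjusted p from 0.0735 to 0.22). CDK4, the sister kinase, was higher by 0.25 (adjusted p = 0.0397) in sample and 0.31 (adjusted p = 0.000462) in mock against untransfected cells, in the authors' deposited table.

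Within each group the order of levels per kilobase was CCND1, CCND2, CDK6 and CCND3. CCND2 averaged 1834 normalized read counts per kilobase in sample, 1652 in mock and 1604 in untransfected cells. CDK6 averaged 1441, 1398 and 1215 per kilobase, and CCND3, from its entry of known length, 1273, 1165 and 915, in the same order of groups. These neighbours did not overlap between libraries in any group. The narrowest gap was in sample cells, where CDK6 had 1430 and 1451 and CCND3 1142 and 1404 normalized read counts per kilobase.

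CDKN1B codes for p27, the Cip/Kip protein that holds cyclin E with CDK2 inactive in resting cells. It lies at chr12:12717270-12722383, and its start falls inside the promoter window printed above. It had 691.6 and 679.4 normalized read counts in sample cells, 750.2 and 723.4 in mock cells, and 2812.0 and 2997.6 in untransfected cells. The untransfected libraries stood far above the other 4, and within each group the libraries lay close together. CDKN1B was 4.24 times lower in sample and 3.94 times lower in mock cells. Its log2 fold change was -2.05 (SE 0.13, adjusted p = 2.02e-53) in sample and -1.95 (SE 0.09, adjusted p = 3.49e-101) in mock against untransfected cells, in the authors' deposited table.

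CDKN1C codes for p57, a Cip/Kip protein known for imprinted expression and for arrest during development, and lies at chr11:2883218-2885765. It had 120.5 and 111.2 normalized read counts in sample cells, 104.9 and 113.1 in mock cells, and 663.4 and 807.5 in untransfected cells. Every transfected library was below both untransfected ones, and the untransfected pair was the most spread of its 3 pairs. Its log2 fold change was -2.51 (SE 0.22, adjusted p = 2.93e-27) in sample and -2.67 (SE 0.17, adjusted p = 4.13e-57) in mock against untransfected cells, in the authors' deposited table. That was the largest change among the members in both comparisons. The shallow sample library rested on 27 CDKN1C reads, so its value carries wide counting error.

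CDKN2B codes for p15, the INK4 protein known as a target of TGF-beta, and lies at chr9:22002903-22009313. It had 108.7 and 102.9 normalized read counts in sample cells, 97.14 and 75.12 in mock cells, and 528.9 and 565.9 in untransfected cells. Both transfected groups were well below the untransfected one. CDKN2B was 5.17 times lower in sample and 6.36 times lower in mock cells. Its log2 fold change was -2.23 (SE 0.23, adjusted p = 1.01e-20) in sample and -2.56 (SE 0.18, adjusted p = 5.49e-45) in mock against untransfected cells, in the authors' deposited table. The shallow sample library held 25 CDKN2B reads.

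CDKN2C codes for p18, an INK4 protein active in many differentiating cells, and its main entry lies at chr1:50968695-50974634. It had 363.8 and 304.7 normalized read counts in sample cells, 308.4 and 305.1 in mock cells, and 1259.8 and 1340.6 in untransfected cells. Again the 4 transfected libraries lay together, far below the untransfected pair. On the log2 scale its change was -1.87 (SE 0.17, adjusted p = 9.78e-27) in sample and -2.04 (SE 0.12, adjusted p = 1.69e-67) in mock against untransfected cells, in the authors' deposited table. The shorter entry, at chr1:50969970-50974637, had -1.79 in sample and -1.95 in mock against untransfected cells, in the authors' deposited table, though the entries can share reads.

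The falls of these 4 inhibitors did not rest on 1 library. Without any 1 library in turn, the limma log2 fold change ran from -2.13 to -2.04 for CDKN1B, from -2.77 to -2.49 for CDKN1C, from -2.40 to -2.30 for CDKN2B and from -2.10 to -1.83 for CDKN2C in sample against untransfected cells. In mock against untransfected cells the ranges were -2.04 to -1.95, -2.91 to -2.62, -2.86 to -2.50 and -2.14 to -2.05, in the same order of genes. RNA was measured in bulk, so fewer cells expressing an inhibitor and less of its RNA per cell cannot be told apart.

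The other inhibitors outside the 10 genes behaved unlike each other. CDKN2D, which codes for p19, the remaining INK4 protein, had 161.2 and 98.82 normalized read counts in sample cells, 161.0 and 153.0 in mock cells, and 372.9 and 354.9 in untransfected cells. CDKN2D fell, with log2 fold changes of -1.30 (SE 0.27, adjusted p = 1.03e-05) in sample and -1.16 (SE 0.17, adjusted p = 1.01e-10) in mock against untransfected cells, in the authors' deposited table. CDKN1A, which codes for p21, the Cip/Kip protein induced by p53, had 4989.7 and 5612.2 normalized read counts in sample cells, 4509.7 and 4678.6 in mock cells, and 4554.6 and 4652.5 in untransfected cells. The mock and untransfected libraries overlapped, and the 95% limma interval of its fold was 0.997 to 1.27 in sample and 0.879 to 1.11 in mock against untransfected cells. Per kilobase CDKN1A stood at 2338 normalized read counts in sample, 2027 in mock and 2031 in untransfected cells, above every library of CDKN1C, which had 54.4 to 62.4 per kilobase in transfected and 344 and 418 in untransfected cells.

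**Figure D2:**
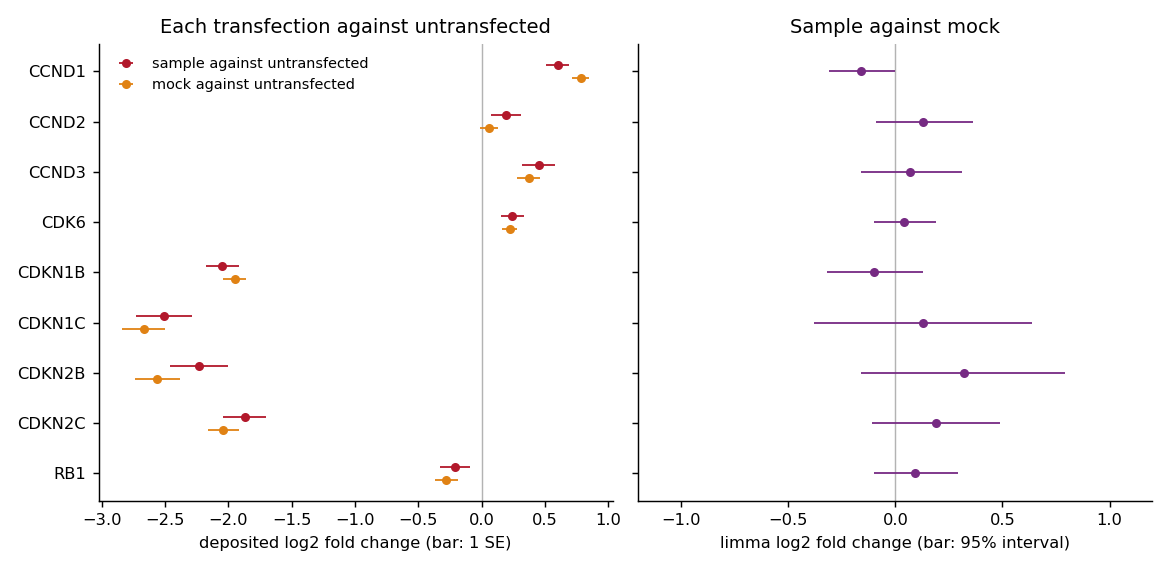
Left, the deposited log2 fold change of each member in sample and in mock against untransfected cells, with 1 SE. Right, the limma log2 fold change in sample against mock cells, with its 95% interval. CDKN1B, CDKN1C, CDKN2B and CDKN2C lie between -2.67 and -1.87 on the left, and the right panel reaches 0.79 at most, at the upper end for CDKN2B.

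CDKN2A, which codes for the INK4 protein p16 and, in another reading frame, for the p53 pathway protein ARF, had 0 reads in each of the 6 libraries in all 3 of its listed entries. The widest of them spans chr9:21967752-21994491. A count of 0 allows up to 3 reads, which is 2.35 and 12.4 normalized read counts in sample cells, 2.13 and 2.78 in mock cells, and 1.95 and 2.14 in untransfected cells, for counting error only. No fold change can be given, and expression below these limits was not detectable.

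The neighbours of CDKN2A on chromosome 9 were read at widely different levels. MTAP, a gene of methionine salvage often lost with CDKN2A in tumours, had 2040.3 and 1906.4 normalized read counts in sample cells, 2332.9 and 2368.5 in mock cells, and 1207.2 and 1262.2 in untransfected cells. MTAP was higher by 0.67 (adjusted p = 9.98e-07) in sample and by 0.94 (adjusted p = 1.04e-26) in mock than in untransfected cells on the log2 scale, in the authors' deposited table. Its direction was thus opposite to that of CDKN2B, on the other side of CDKN2A. The antisense transcript CDKN2B-AS1, whose span covers CDKN2B, reached at most 0.7127 normalized read counts, which is 1 read, in any library.

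**Figure D3:**
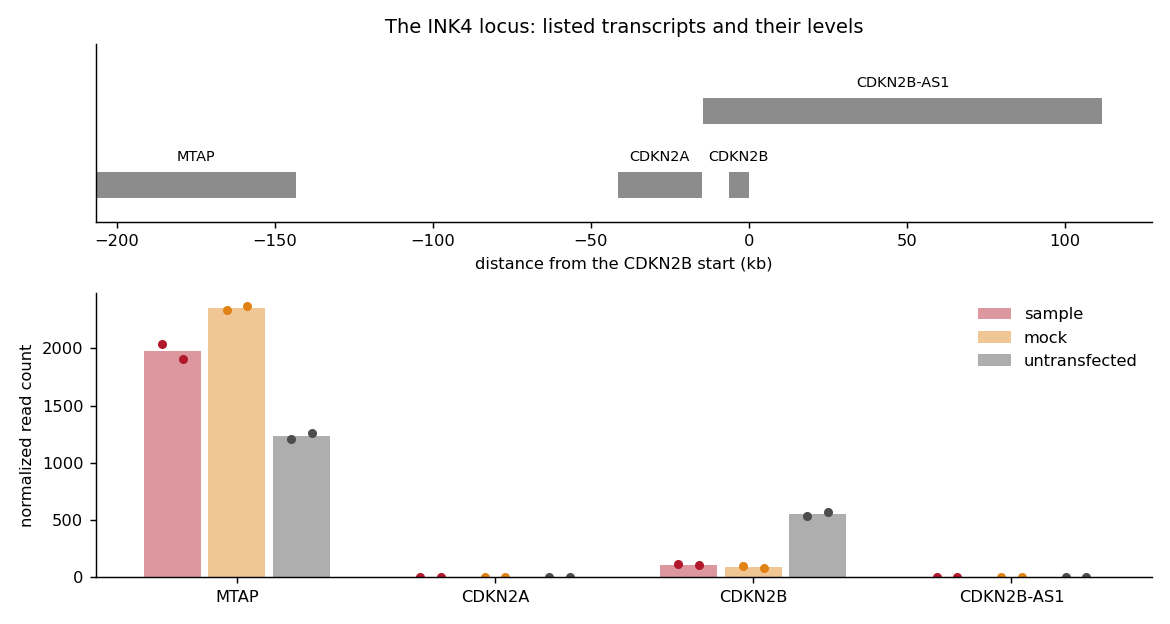
Top, the listed spans of MTAP, CDKN2A, CDKN2B and CDKN2B-AS1, by distance in kb from the CDKN2B start. Bottom, their normalized read counts, with bars for group means and points for libraries. MTAP is higher and CDKN2B lower in sample and mock cells than in untransfected cells, and CDKN2A stands at 0 throughout.

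RB1, the pocket protein that D cyclin kinases phosphorylate, lies at chr13:48303747-48481890. It had 1500.5 and 1494.7 normalized read counts in sample cells, 1455.7 and 1352.1 in mock cells, and 1780.3 and 1689.1 in untransfected cells. All transfected libraries were below both untransfected ones. RB1 fell in mock cells, at -0.28 (SE 0.09, adjusted p = 0.00447) on the log2 scale in the authors' deposited table. In sample cells the authors' deposited table gave -0.21 (SE 0.12, adjusted p = 0.185), while limma gave -0.22 (adjusted p = 0.0483). Whether RB1 was called in sample cells thus depended on the test, and its mock call was lost without the deeper untransfected library (limma adjusted p = 0.0635). Per kilobase RB1 stood at 312 normalized read counts in sample, 293 in mock and 362 in untransfected cells. It was above CDKN2C in every transfected library and below it in both untransfected ones, where CDKN2C had 604 and 643 per kilobase against 371 and 352 for RB1. Of the related pocket proteins, RBL2, a partner of E2F factors in resting cells, fell by 0.69 on the log2 scale in both comparisons of the authors' deposited table (adjusted p = 1.3e-05 in sample and 2.34e-10 in mock cells). RBL1, which acts during S phase, had -0.07 (adjusted p = 0.727) in sample and -0.0028 (adjusted p = 0.984) in mock against untransfected cells, in the authors' deposited table.

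Ratios of reads within a library need no scaling between libraries. For each CDKN1B read there were 17.4 and 17.6 CCND1 reads in sample libraries, 17.4 and 18.9 in mock libraries, and 2.74 and 2.69 in untransfected libraries. CCND1 reads per CDKN2C read were 33.1 and 39.2 in sample, 42.3 and 44.9 in mock, and 6.12 and 6.01 in untransfected libraries. CDK6 reads per CDKN2C read were 45.7 and 55.4 in sample, 52.8 and 53.1 in mock, and 10.9 and 10.8 in untransfected libraries. In each of these ratios all 4 transfected libraries were far above both untransfected ones, and the spread within a pair was small beside the gap. CCND1 reads per CCND2 read, a ratio of 2 cyclins, were 1.14 and 0.907 in sample, 1.25 and 1.25 in mock, and 0.761 and 0.756 in untransfected libraries.

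**Figure D4:**
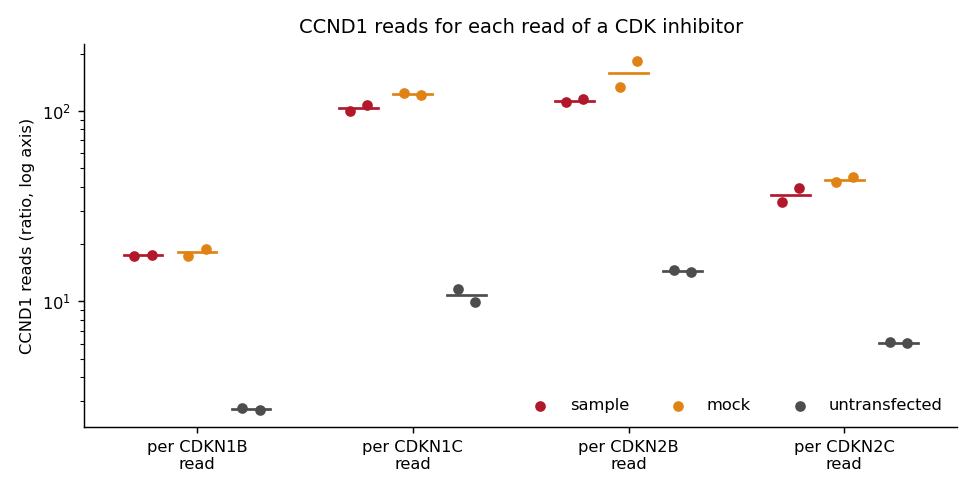
CCND1 reads for each read of CDKN1B, CDKN1C, CDKN2B or CDKN2C, on a log axis. Points are libraries and lines are group means. The sample and mock points lie above the untransfected points for all 4 inhibitors, as in 17.4 and 17.6 CCND1 reads per CDKN1B read in sample cells against 2.74 and 2.69 in untransfected cells.

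Sample against mock cells is the direct comparison of the light-controlled plasmids with the control plasmids. Of the 9 members, 0 were called by DESeq2 in the authors' deposited table, where 12 of 15287 genes (0.0785%) were called, and 0 had an unadjusted p under 0.05 there. By limma 0 were called and 1, CCND1, had an unadjusted p under 0.05 (0.0456, adjusted p = 0.96). Its log2 fold change by limma was -0.16, and its fold had a 95% interval of 0.808 to 0.997. The intervals of the fold by limma were 0.799 to 1.09 for CDKN1B, 0.768 to 1.56 for CDKN1C, 0.896 to 1.73 for CDKN2B and 0.926 to 1.40 for CDKN2C. For the others they were 0.937 to 1.28 for CCND2, 0.893 to 1.24 for CCND3, 0.93 to 1.14 for CDK6 and 0.934 to 1.22 for RB1. A difference of the size seen against untransfected cells lies outside each inhibitor's interval. For these inhibitors, differences within the interval could not be told from no difference. Among the members the deposited and limma values were furthest apart for CDKN2B, with 0.09 in the authors' deposited table and 0.32 by limma. The ratio of its group means was 1.23, so the deposited value lay nearer to no change than the means. The same held outside the members for HBB, with means of 82.5 in sample and 7.53 in mock cells and a deposited 0.38. A small deposited value in this comparison is therefore not by itself a measure of likeness.

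The rest of the G1 pathway moved in both directions. Among the cyclin E, cyclin A, CDK2 and CDC25 genes, 2 of 7 were higher and 1 lower in sample cells, and 2 were higher and 2 lower in mock cells, by the authors' deposited table. CCNE1, the cyclin that activates CDK2 at S phase entry, was higher by 0.68 in sample (adjusted p = 9.92e-09) and 0.74 in mock cells (adjusted p = 5.79e-21), in the authors' deposited table. CDC25A, the phosphatase that activates CDK2, was higher by 0.79 in sample (adjusted p = 1.55e-11) and 1.00 in mock cells (adjusted p = 1.22e-32), and CDC25C, its relative of mitotic entry, fell by 1.04 (adjusted p = 1.3e-06) and 0.96 (adjusted p = 4.31e-14), on the log2 scale in the authors' deposited table. CDC25B, another relative, fell by 0.52 in mock cells (adjusted p = 4.93e-09) and had -0.23 (adjusted p = 0.352) in sample cells, in the authors' deposited table. Its sample libraries were far apart, at 1524.0 and 2433.5 normalized read counts. Not called were CCNE2, the 2nd cyclin E gene, with -0.21 in sample and -0.15 in mock cells, and CDK2 with 0.10 and 0.15, in the authors' deposited table. The CDK-activating kinase genes had 2 of 3 higher in sample and 3 of 3 in mock cells by the authors' deposited table, with CCNH, its cyclin, at 0.73 (adjusted p = 1.6e-07) and 0.94 (adjusted p = 9.55e-22).

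E2F factors and their targets were split as well. Of 10 E2F and DP genes, 3 were higher and 3 lower in sample cells, and 5 higher and 4 lower in mock cells, by the authors' deposited table. E2F2, an activator, fell by 1.52 in sample (adjusted p = 9.15e-17) and 1.66 in mock cells (adjusted p = 6.62e-31), and E2F1, the best known activator, fell by 0.50 (adjusted p = 6.33e-05) and 0.64 (adjusted p = 2.97e-14), on the log2 scale in the authors' deposited table. E2F3, also an activator, was higher by 0.66 in sample (adjusted p = 0.000136) and 0.78 in mock cells (adjusted p = 1.73e-11), and the repressor E2F4 by 0.81 (adjusted p = 4.92e-10) and 0.78 (adjusted p = 1.1e-18), in the authors' deposited table. TFDP1 codes for a DNA-binding partner of E2F factors. By the authors' deposited table TFDP1 was higher by 0.54 in sample and 0.56 in mock cells (adjusted p = 1.6e-05 and 3.42e-11). TFDP2, the other DP gene of the list, fell by 0.46 in sample and 0.58 in mock cells there (adjusted p = 0.0081 and 1.32e-06).

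Of 18 E2F target genes of S phase entry, 3 were higher and 5 lower in sample cells and 3 higher and 7 lower in mock cells, by the authors' deposited table. Their median log2 fold change was -0.13 in sample and -0.06 in mock cells, against -0.0027 and -0.0038 over all genes tested. Those that fell included MCM6, a subunit of the replicative helicase, at -0.65 in sample and -0.72 in mock cells, in the authors' deposited table. TK1, of thymidine salvage, fell by 0.46 in sample and 0.53 in mock cells, and the replication factor GINS2 by 0.41 and 0.45, in the authors' deposited table. The 3 called higher in both comparisons, picked out after their values were seen, were the replication licensing factor CDC6 at 0.39 in sample and 0.44 in mock cells, the methylation maintenance gene UHRF1 at 0.32 and 0.44, and the histone mRNA binding gene SLBP at 0.32 and 0.32, in the authors' deposited table. Of 12 proliferation markers, 1 was higher and 2 lower in sample cells and 2 higher and 3 lower in mock cells, by the authors' deposited table. TOP2A, a topoisomerase of dividing cells, fell by 0.56 in sample and 0.49 in mock cells, and the mitotic cyclin CCNB2 by 0.40 and 0.42, while the mitotic kinase PLK1 was higher by 0.49 and 0.36, in the authors' deposited table. MKI67, a marker of cycling cells, fell by 0.36 in mock cells and had -0.17 (adjusted p = 0.4) in sample cells, in the authors' deposited table. RNA levels do not give the share of cells in each phase.

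**Figure D5:**
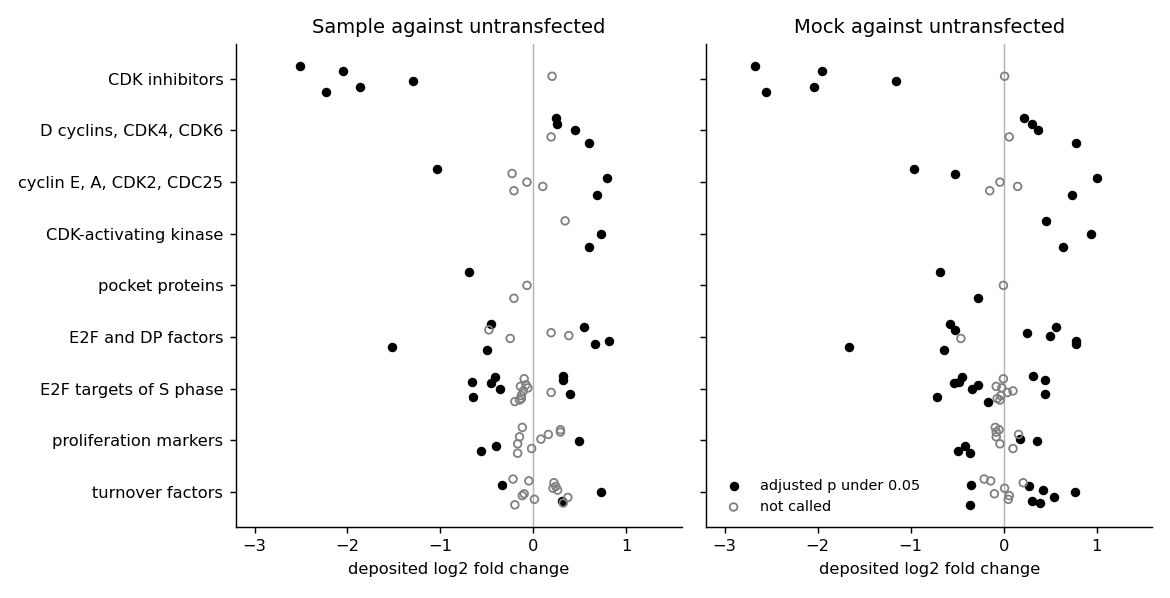
Deposited log2 fold changes of the genes of 9 lists of the G1 pathway in sample (left) and mock (right) against untransfected cells. Each point is a gene, filled where its adjusted p was under 0.05. The CDK inhibitors reach -2.51 in sample and -2.67 in mock cells, beyond any gene of the other lists shown, and the lists of cyclin E and A, of E2F factors, of their targets, of proliferation markers and of turnover factors hold genes on both sides of 0.

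Genes that act on the inhibitors were named from lists as well. Among 8 regulators of CDKN1B and CDKN1C, 2 were higher and 1 lower in sample cells, and 3 higher and 3 lower in mock cells, by the authors' deposited table. FOXO4, a forkhead factor that can activate CDKN1B, fell to 161.9 and 205.9 normalized read counts in sample cells and 182.2 and 161.4 in mock cells, against 384.6 and 409.1 in untransfected cells. MYC, which can repress CDKN1B, had 4134.6 and 5719.3 normalized read counts in sample cells, 4222.5 and 4897.5 in mock cells, and 804.4 and 760.5 in untransfected cells. Their log2 fold changes were -1.09 and 2.58 in sample and -1.16 and 2.54 in mock against untransfected cells, in the authors' deposited table. The other forkhead genes of the list differed from FOXO4 and from each other. FOXO1 fell by 0.52 in mock cells (adjusted p = 0.0475) and had -0.56 (adjusted p = 0.136) in sample cells, in the authors' deposited table. FOXO3, named after its values were seen, was higher by 0.29 in mock cells (adjusted p = 0.0131) and had 0.31 (adjusted p = 0.0776) in sample cells, in the authors' deposited table. It had 997.5 and 1050.0 normalized read counts in sample cells, 979.2 and 997.9 in mock cells, and 793.3 and 841.0 in untransfected cells. PHLDA2, an imprinted neighbour of CDKN1C on chromosome 11, rose by 1.89 in sample and 1.74 in mock cells, opposite to CDKN1C, in the authors' deposited table. The other neighbours of CDKN1C in the list were also named after their values were seen. KCNQ1 fell by 1.54 in mock cells (adjusted p = 0.00921) and had -0.98 (adjusted p = 0.0983) in sample cells, in the authors' deposited table. It had 0 to 3 reads per transfected library, and means of 1.17 normalized read counts in sample, 1.99 in mock and 15.3 in untransfected cells. At these low counts the deposited changes were smaller in size than the means give, and most so in sample cells. The antisense transcript KCNQ1OT1 had -0.45 (adjusted p = 0.179) in sample and -0.44 (adjusted p = 0.054) in mock cells, in the authors' deposited table.

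Of 13 neighbours and regulators of the INK4 locus with an adjusted p, 3 were higher and 4 lower in sample cells and 5 higher and 4 lower in mock cells, by the authors' deposited table. The Polycomb genes CBX8 and CBX7, which code for proteins that hold the locus repressed, fell by 0.77 and 0.48 in sample cells and by 0.86 and 0.52 in mock cells, in the authors' deposited table. The list's other Polycomb genes were named after their values were seen. By that table BMI1 and RING1 fell by 0.31 and 0.34 in sample and 0.31 and 0.39 in mock cells. RNF2 was higher by 0.32 in mock cells (adjusted p = 0.00316) and had 0.28 (adjusted p = 0.123) in sample cells. EZH2, with -0.24 in sample and -0.13 in mock cells, was not called. KDM6B, a demethylase that removes the Polycomb mark, was higher by 1.42 in sample (adjusted p = 0.00095) and 1.05 in mock cells (adjusted p = 1.32e-05), in the authors' deposited table, but its sample libraries were far apart at 138.5 and 444.7 normalized read counts. Of 15 factors for the turnover of D cyclins and CDKN1B protein, 2 were higher and 1 lower in sample cells and 6 higher and 2 lower in mock cells, by the authors' deposited table. FBXO31, an F-box protein that targets CCND1, was higher by 0.73 in sample (adjusted p = 8.02e-06) and 0.77 in mock cells (adjusted p = 1.72e-14), and SKP2, which targets CDKN1B, had -0.20 (adjusted p = 0.146) and -0.36 (adjusted p = 6.8e-06), in the authors' deposited table. No protein was measured.

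The patterns most like those of the members over the 6 libraries were sought among 12579 genes, by Euclidean distance between centred log2 values. For CCND1, the most-read D cyclin over the libraries, they were CSNK1A1 at 0.0347, TGIF2-RAB5IF at 0.0603 and METTL13 at 0.0611. CSNK1A1 had 9402.8 and 9293.3 normalized read counts in sample cells, 10049.0 and 10412.6 in mock cells, and 6009.4 and 6291.0 in untransfected cells. For CDKN1B, the most-read inhibitor among the members, they were PIK3R3 at 0.159, COL9A2 at 0.194 and INSIG1 at 0.195. CDKN2C was 9th in likeness to CDKN1B, CDKN2B 262nd and CDKN1C 342nd. These distances cover 3 groups of 2 libraries and are descriptions.

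Markers of cell types also differed between the groups. The 6 epithelial markers summed to 334 to 371 normalized read counts in sample cells, 302 to 364 in mock cells and 2333 to 2494 in untransfected cells, from the lower to the higher library of each group. Of these, 4 fell in each comparison with untransfected cells in the authors' deposited table, among them CLDN4 and KRT5. CLDN4 was the largest part of the untransfected sum, at a mean of 1458 there, 142 in sample and 114 in mock cells. CDH1 was not called in either comparison, at means of 49.4 in sample, 50.6 in mock and 45.8 in untransfected cells. ESRP1 was near the limit of detection, at 0 reads in the shallow sample library and 2 or 3 in the other transfected libraries. The 9 osteoblast markers summed to 28321 to 36642 in sample, 27020 to 27973 in mock and 40353 to 41080 in untransfected cells. Most of each sum was SPARC, at means of 21134 in sample, 20878 in mock and 32106 in untransfected cells. COL1A1 differed between the sample libraries, at 6105.3 and 14773.7 normalized read counts. IBSP had 0 reads in all libraries, and SP7 had 1 read in 1 untransfected library and 0 in the rest. The list did not move as one. RUNX2, the defining osteoblast factor, had log2 fold changes of -1.76 in sample and -2.49 in mock cells, while ALPL, the alkaline phosphatase of bone, had 3.05 (adjusted p = 2.91e-37) and 3.62 (adjusted p = 1.5e-99), in the authors' deposited table. In the authors' deposited table SPP1, a bone matrix protein gene, was higher by 0.57 in mock cells (adjusted p = 0.0167). The 5 mesenchymal markers summed to 62983 to 75273 in sample, 68851 to 71104 in mock and 50348 to 53393 in untransfected cells. Against that sum, the authors' deposited table gave S100A4, 1 of the 5, log2 fold changes of -1.15 in sample (adjusted p = 5.85e-08) and -1.33 in mock cells (adjusted p = 6.2e-20). The 7 blood markers summed to 86.5 to 147 in sample, 47.3 to 48.2 in mock and 23.5 to 37.0 in untransfected cells, with CD3E at 0 in all libraries. Of the blood markers HBB, a globin gene, was called higher in sample than in mock and than in untransfected cells, by the authors' deposited table. The part of these shifts in the values of the cyclins and inhibitors was not tested.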

How the data were processed

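RNA was sequenced from 6 libraries of U2OS 2-6-3 cells, grouped by transfection as the labels give it. Directional libraries were made with a commercial kit, per the labels' protocols. The submitters' processing notes name the build hg38 and the tools Bowtie, STAR and DESeq2. No version, role, annotation or strand setting is given in the sources used here. Per the file headers, the authors deposited 3 tables of comparisons with a mean signal of normalized counts, a log2 fold change with its SE, a Wald score, and a p-value with its adjusted p-value, for 40029 entries each. The authors fitted each comparison with only the 4 libraries of its pair of groups.

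The deposited mean averages the whole counts of those libraries after division by size factors. Lattice reduction (Python 3.11.15, sympy 1.14.0, numpy 2.4.6, pandas 2.3.3) recovered whole counts per library for all 30527 entries with reads, within a relative tolerance of 1e-14. Replicate numbers could not be tied to the recovered libraries, so the deeper of a group is given first and the shallower after it. Since raw counts are not among the columns, the authors' own results are reported and edgeR was not used. As an alternative, limma-voom from limma 3.58.1 in R 4.3.3 was fitted to the recovered counts, for genes that averaged 10 or more normalized counts. It used Benjamini-Hochberg adjustment and followed checks on simulated data. The counts simulated for limma had the same spread beyond counting error in every library. Those checks therefore did not cover the wider spread of the sample pair. Symbols were found for 39720 entries (99.2%), and a gene was represented by its most-read entry on a primary chromosome. Length came from GENCODE 29 where transcript ends matched within 100 bases. Named genes were all members, in each list up to 4 called genes averaging 50 or more normalized counts (2 abundant ones where none was called), a set given whatever its result, and the genes nearest in pattern. A few that qualify are not reported here.  The members and lists were chosen with earlier results of these data known.  Figures were drawn with matplotlib 3.10.9.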

Additional observations from a re-analysis of the deposited data

How the results depend on the processing

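No paired analysis was possible because the recovered libraries could not be tied to replicate numbers, so the replicate block was not run. The deposited direction was kept in 317 of 324 values of members under alternatives. Members called in mock against untransfected cells numbered 8, and 5 to 7 without 1 library. The lowest count, without the deeper untransfected library, lost CCND3, CDK6 and RB1. In sample against untransfected cells it was 7, and 5 to 8 without 1 library. These member counts are by the authors' deposited table with all libraries and by limma without 1 library. With all libraries limma called 8 members in mock against untransfected cells. In sample against untransfected cells it called RB1 as well (adjusted p = 0.0483). The upper end in sample cells can therefore come from the change of test. The share of all genes that limma called against untransfected cells is not given here. Its member counts in those comparisons therefore stand without a background. Genes called in sample against mock cells numbered 12, against 6 at an adjusted p under 0.01, and 2 by limma with size factors, with library totals or with summed entries. Without 1 library that count ran from 2 to 824, the highest value resting on the shallow sample library alone, taken to vary like the others. Library totals moved the median log2 fold change of all genes to -0.13 in mock and -0.12 in sample against untransfected cells and turned CCND2 to -0.10 in mock cells, which is above that median. Without 1 library CCND2 ran from -0.01 to 0.07 in mock against untransfected cells, and in sample against mock cells CCND2 ran from -0.01 to 0.30, CCND3 from -0.03 to 0.27 and CDKN2C from -0.0037 to 0.25. The cause was not tested. Depth limits CDKN1C and CDKN2B most, with 27 and 25 reads in the shallow library.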
